A study of Mus musculus with 3 samples.

Results

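The classical cadherin genes *Cdh1*, *Cdh2* and *Cdh3*, the intermediate filament gene *Vim* and the EMT factor genes *Snai1*, *Snai2*, *Zeb1*, *Zeb2* and *Twist1* were followed in mouse ALSCs. They were chosen by gene name from the table of counts, and the 9 names matched 9 of its 55421 named genes, 1 entry each. ALSCs are primed pluripotent stem cells that were derived from the epiblast of gastrulae at embryonic day 6.5, from ICR females mated with GOF/GFP males, and grown in a defined medium with Activin A and LIF. Poly(A) RNA of 3 libraries (replicates 1, 2 and 3) was sequenced, and all 3 belong to this 1 condition. The paper speaks of biological replicates, and the labels do not say whether the libraries came from separate lines or cultures. No other cell type was analysed here, and no comparison between conditions was made.

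Epithelial-mesenchymal transition (EMT) is the program by which cells of an epithelial sheet lose their junctions and become motile. Classical cadherins are transmembrane adhesion proteins that bind cadherins on the neighbouring cell and are linked to actin through catenins. The factors of the Snail, Zeb and Twist families repress *Cdh1* and other epithelial genes, in part through E-box motifs, and the Zeb genes are themselves held down by the microRNAs of the miR-200 family. In the mouse embryo, epiblast cells pass through this transition when they leave through the primitive streak, where *Cdh1* is lowered and *Cdh2* and *Vim* come up.

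The mature miR-200 sequences are shown because their seed, bases 2 to 8 in capitals, divides the family into the group of miR-141 and miR-200a and the group of miR-200b, miR-200c and miR-429. They are the RefSeq sequences of build GRCm38.p6.
mmu-miR-141-3p: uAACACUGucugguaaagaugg
mmu-miR-200a-3p: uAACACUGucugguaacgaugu
mmu-miR-200b-3p: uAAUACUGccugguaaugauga
mmu-miR-200c-3p: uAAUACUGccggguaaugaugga
mmu-miR-429-3p: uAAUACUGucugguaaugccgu
The DNA letters that pair with these seeds are CAGTGTT for the first group and CAGTATT for the second group, and they were searched on the transcript strand of the 3′ UTR of the longest coding transcript (GENCODE M21, GRCm38). The *Zeb1* 3′ UTR of 2401 bases held 5 matches to CAGTATT and 4 to CAGTGTT. The *Zeb2* 3′ UTR of 4941 bases held 5 and 4. Of 4097 3′ UTRs at least as long as that of *Zeb1*, 60.4% held 1 match or more and 0.0732% held as many as 9. For *Zeb2* the shares were 77.3% and 0.243% of 822 3′ UTRs. Both sets include the gene itself, and that of *Zeb1* also includes *Zeb2*, so the Zeb genes are part of the small shares. The 5 matches of *Zeb2* to CAGTATT are printed on the transcript strand with the match in capitals, and all start between bases 393 and 1039 of the 3′ UTR.
*Zeb2* site, base 393 of the 3′ UTR, chr2:44988164-44988190, minus strand: taccatacatCAGTATTttattattat
*Zeb2* site, base 458 of the 3′ UTR, chr2:44988099-44988125, minus strand: tacagtgcatCAGTATTacgattcctc
*Zeb2* site, base 820 of the 3′ UTR, chr2:44987737-44987763, minus strand: gcacccgtgtCAGTATTagacgactag
*Zeb2* site, base 905 of the 3′ UTR, chr2:44987652-44987678, minus strand: ttaattttgtCAGTATTacaccaaact
*Zeb2* site, base 1039 of the 3′ UTR, chr2:44987518-44987544, minus strand: ctgtagtgtaCAGTATTatagttcttc
A match is a description of the letters and not a measured site.

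**Figure D1:**
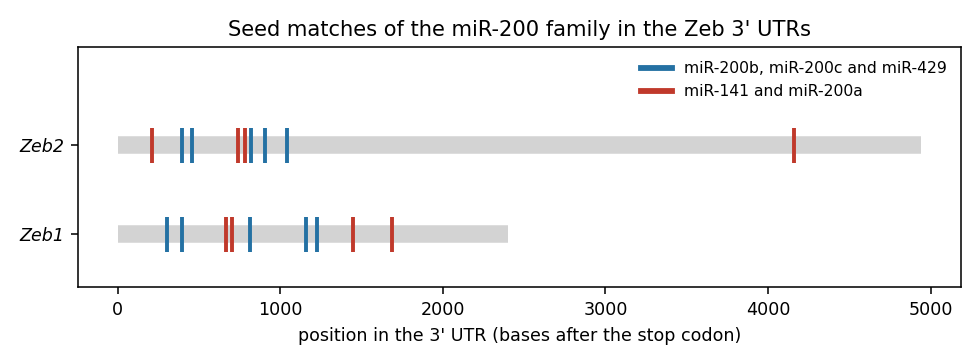
Positions of the seed matches of the miR-200 family in the 3′ UTRs of *Zeb1* and *Zeb2*, with the base after the stop codon on the x axis and 1 grey bar per 3′ UTR. Blue ticks are matches of miR-200b, miR-200c and miR-429, and red ticks are matches of miR-141 and miR-200a. The bars hold 9 ticks each, and of the 9 ticks of *Zeb2*, 1 stands apart near the far end.

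The poly(A) libraries do not measure mature microRNAs. The table lists the 5 hairpins of the family, of 69 to 90 bases, and each had a count of 0 in every library, which says nothing about the mature forms. The files used here thus give the levels of *Zeb1* and *Zeb2* RNA but not of their regulators.

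The total count on named genes was 18037342 to 18724038 per library, and levels are given as FPKM (counts per kilobase of gene length, scaled to the library's total). Intervals and detection limits cover counting error only. Replicate 1 stood apart from the others, and the difference followed gene length. Its scaled counts relative to the mean of replicates 2 and 3 were higher by 0.39 (log2) in the shortest group of genes, of a median of 685 bases. In the longest group, of a median of 15642 bases, the log2 difference was -0.52. The biological coefficient of variation was 0.149 over the 3 libraries and 0.0525 without replicate 1. The cause was not tested. The pluripotency genes *Pou5f1* (648 ± 25.3 FPKM, SD, n = 3) and *Nanog* (171 ± 18) and the other 3 of the 5 pluripotency and epiblast markers reached 1 FPKM in every library. Among 6 fibroblast markers, no library had more than 3 counts on *Col3a1*, *Dcn*, *Lum* or *Postn*. The list summed to 8.07 to 8.64 FPKM per library, mostly from *Thy1* (6.88 ± 0.400) and *Pdgfrb* (1.54 ± 0.120).

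The 9 genes spanned levels from those of abundant structural genes to a few counts per library. *Vim* and *Cdh1* were the highest, *Cdh2*, *Cdh3* and *Zeb1* were at low levels of 1 FPKM or more in every library, *Zeb2* lay near 1 FPKM, and *Snai1*, *Snai2* and *Twist1* were below 0.5 FPKM in each. In all, 5 of the 9 reached 1 FPKM in every library, beside 20.1% of all named genes and 45.7% of protein-coding genes. In bulk RNA, fewer cells with a gene on and less RNA per cell cannot be told apart.

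**Figure D2:**
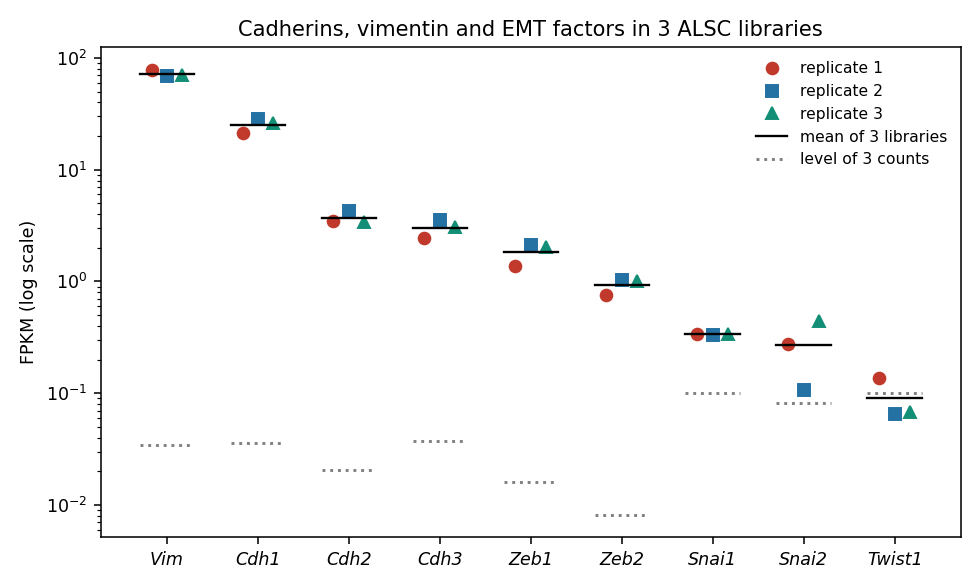
Level of each of the 9 genes in the ALSC libraries, as FPKM on a log axis. Points are the 3 libraries, the solid bar is their mean, and the dotted bar is the level that 3 counts would give. *Vim* and *Cdh1* stand above 20 FPKM in every library, and *Snai1*, *Snai2* and *Twist1* stand below 0.5 FPKM in every library.

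*Cdh1* encodes E-cadherin, the adhesion protein of epithelial junctions. The gene (ENSMUSG00000000303) lies at chr8:106603351-106670246 on the plus strand (GRCm38) and has 16 exons in its longest coding transcript. It held 1768, 2416 and 2159 counts in replicates 1, 2 and 3. That came to 21.4, 28.2 and 26.2 FPKM, with a mean of 25.2 ± 3.51 (SD, n = 3). Replicate 1 was the lowest and replicates 2 and 3 were near each other. The mean exceeded the means of 79.4% of genes that reached 1 FPKM in every library.

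*Cdh3* encodes P-cadherin, the placental cadherin, which is also found in several epithelia. The gene (ENSMUSG00000061048) lies at chr8:106510891-106557297 on the same strand, and its end is 46053 bases before the start of *Cdh1*. Its counts were 196, 292 and 242, and its levels 2.47, 3.56 and 3.06 FPKM, with a mean of 3.03 ± 0.543 (SD, n = 3). As for its neighbour *Cdh1*, replicate 1 was lowest and replicate 2 highest.

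*Cdh2* encodes N-cadherin, the cadherin of neural tissue, early mesoderm and the heart. The gene (ENSMUSG00000024304) lies at chr18:16588877-16809246 on the minus strand. It held 511, 643 and 494 counts in replicates 1, 2 and 3. Per length, these were 3.50, 4.26 and 3.40 FPKM, with a mean of 3.72 ± 0.470 (SD, n = 3). Here replicate 2 was highest, and replicates 1 and 3 were close to each other.

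Within a library, where the total cancels, *Cdh1* was the main cadherin of the 3. The ratio of *Cdh1* to *Cdh2* in FPKM was 6.10, 6.63 and 7.71 in replicates 1, 2 and 3, a log2 ratio of 2.76 ± 0.17 (SD, n = 3). The ratio of *Cdh1* to *Cdh3* was 8.65, 7.93 and 8.55, a log2 ratio of 3.07 ± 0.07. With the authors' gene lengths, *Cdh1* made up 78.9% ± 1.15 of the summed FPKM of the 3 cadherins, *Cdh2* 11.7% ± 1.21 and *Cdh3* 9.43% ± 0.420 (SD, n = 3). The sum itself moved more than these shares, from 27.3 FPKM in replicate 1 to 36.0 in replicate 2. With the lengths of the longest coding transcripts, the means of *Cdh1*, *Cdh2* and *Cdh3* were 26.1, 6.19 and 3.03 FPKM, so the shares depend on the length used.

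The other cadherins with a number in their name were added after the values had been seen. Of these 23 genes, *Cdh1* included, 4 reached 1 FPKM in every library, beside 20.1% of all named genes and 45.7% of protein-coding genes. Besides the E-, N- and P-cadherin genes this was *Cdh24*, a type II cadherin, at 3.53, 5.34 and 4.54 FPKM (mean 4.47 ± 0.907, SD, n = 3), a range that overlapped that of *Cdh2*. *Cdh7*, *Cdh16*, *Cdh17*, *Cdh19* and *Cdh26* had at most 3 counts in every library. With the authors' gene lengths, *Cdh1* took 61.3% ± 1.17 of the FPKM summed over the 23 genes, and together with *Cdh2* and *Cdh3* it took 77.7% ± 1.05 (SD, n = 3). Of the 8 cadherins chosen with the gene lists (*Cdh4*, *Cdh5*, *Cdh6*, *Cdh8*, *Cdh11*, *Cdh13*, *Cdh15* and *Cdh17*), 0 reached 1 FPKM in every library (20.1% and 45.7% as above). The highest were *Cdh4*, the retinal cadherin, at 1.18 ± 0.375 FPKM, and *Cdh13*, which lacks a cytoplasmic domain, at 0.50 ± 0.0536 FPKM.

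**Figure D3:**
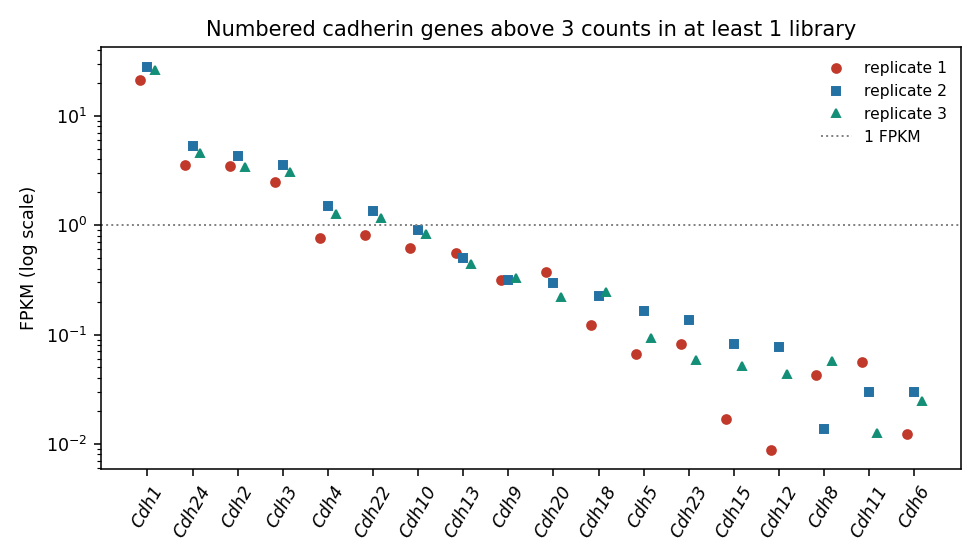
Levels of the numbered cadherin genes with more than 3 counts in at least 1 ALSC library, as FPKM on a log axis, ordered by mean level. Points are the 3 libraries, marked by replicate, and the dotted line is 1 FPKM. *Cdh1*, at a mean of 25.2 FPKM, stands well above *Cdh24*, *Cdh2* and *Cdh3*, at 4.47, 3.72 and 3.03 FPKM.

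*Vim* encodes vimentin, the intermediate filament protein of mesenchymal cells, which many cultured cells also make. The gene (ENSMUSG00000026728) lies at chr2:13573927-13582826 on the plus strand. Its counts were 6744, 6136 and 5975, and its levels 78.6, 69.1 and 69.8 FPKM, with a mean of 72.5 ± 5.29 (SD, n = 3). It was the highest of the 9 genes in every library, and its mean exceeded those of 92.6% of genes that reached 1 FPKM in every library. Unlike the cadherins, it was highest in replicate 1, so that the ratio of *Cdh1* to *Vim* was lowest there, at 0.272 against 0.408 and 0.375 (log2 ratio -1.53 ± 0.31, SD, n = 3). The gap between the genes depended on the length used, since the authors' table gives *Vim* 4743 bases and its longest coding transcript has 2193. With the transcript's length *Vim* came to 157 ± 11.4 FPKM.

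*Zeb1* encodes a zinc finger and homeodomain repressor of *Cdh1*. The gene (ENSMUSG00000024238) lies at chr18:5591860-5775467 on the plus strand. Its counts were 256, 408 and 373, and its levels 1.38, 2.12 and 2.01 FPKM, with a mean of 1.84 ± 0.402 (SD, n = 3), while 3 genes that overlap it held 1, 5 and 2 counts together. Replicate 1 was the lowest, and no library overlapped those of *Cdh3* above it or *Zeb2* below it in FPKM. With the longest coding transcript's length, however, *Zeb1* came to 3.25 ± 0.711 FPKM, above *Cdh3*.

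*Zeb2* encodes the related repressor, also known for its part in neural crest development. The gene (ENSMUSG00000026872), with the miR-200 seed matches printed above, lies at chr2:44983632-45117395 on the minus strand. Its counts were 276, 387 and 368, and its levels 0.755, 1.02 and 1.01 FPKM, with a mean of 0.929 ± 0.151 (SD, n = 3). Replicates 2 and 3 reached 1 FPKM and replicate 1 did not. The level rests on a length of 20203 bases in the authors' table, which spans 29 annotated transcripts, and with the 9124 bases of the longest coding transcript it was 2.06 ± 0.334 FPKM. The labels name a TruSeq RNA kit that does not mark strand, so reads of *Zeb2* and of its antisense partner *Zeb2os* cannot be told apart where the genes overlap. The genes that overlap *Zeb2* together held 8, 5 and 5 counts. The ratio of *Zeb1* to *Zeb2* was 1.83, 2.07 and 1.99 in FPKM, a log2 ratio of 0.97 ± 0.09 (SD, n = 3), and was above 1 in all 3 libraries.

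*Snai1* encodes Snail, a zinc finger repressor of *Cdh1* that is needed for gastrulation. The gene (ENSMUSG00000042821) lies at chr2:167538195-167542814 on the plus strand. It had 10 counts in each library, which came to 0.341, 0.329 and 0.342 FPKM (mean 0.338 ± 0.00698, SD, n = 3). Over the pooled libraries the 95% exact Poisson interval was 0.228 to 0.482 FPKM, which is wider than the spread between the libraries.

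*Snai2* encodes Slug, the relative of Snail. The gene (ENSMUSG00000022676) lies at chr16:14705852-14709385 on the plus strand. It had 10, 4 and 16 counts, or 0.274, 0.106 and 0.439 FPKM, with a mean of 0.273 ± 0.167 (SD, n = 3). The libraries were thus more spread than for *Snai1*, and the pooled 95% exact Poisson interval of 0.183 to 0.386 FPKM overlapped that of *Snai1*. The ratio of *Snai1* to *Snai2* was 1.2, 3.12 and 0.779, so that the order of the pair turned in replicate 3.

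*Twist1* encodes a basic helix-loop-helix factor of cranial mesenchyme and neural crest. The gene (ENSMUSG00000035799) lies at chr12:33957671-33959829 on the plus strand. With 4, 2 and 2 counts it passed the limit of 3 counts only in replicate 1. The levels were 0.136, 0.0656 and 0.0681 FPKM, beside limits of 0.102, 0.0984 and 0.102 FPKM. Pooled, the 95% exact Poisson interval was 0.0387 to 0.177 FPKM, below that of *Snai1* and *Snai2*.

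RefSeq promoters (250 bases before to 50 after the start, GRCm38.p6) were matched by symbol for 4 of the 9 genes, *Vim*, *Zeb2*, *Snai1* and *Twist1*. That of *Vim* is shown as that of the highest of the 9 genes, and that of *Snai1*, one of the lowest, because it holds an E-box. Capitals mark the E-box CACCTG, searched on both strands as CACCTG or CAGGTG.
*Vim* promoter, chr2:13574061-13574360, plus strand: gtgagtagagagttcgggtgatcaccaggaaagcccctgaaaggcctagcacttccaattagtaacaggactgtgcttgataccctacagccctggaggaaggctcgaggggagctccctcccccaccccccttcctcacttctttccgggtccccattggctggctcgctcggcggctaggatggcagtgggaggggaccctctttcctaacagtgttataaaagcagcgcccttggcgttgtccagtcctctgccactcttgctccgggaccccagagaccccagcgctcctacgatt
*Snai1* promoter, chr2:167537945-167538244, plus strand: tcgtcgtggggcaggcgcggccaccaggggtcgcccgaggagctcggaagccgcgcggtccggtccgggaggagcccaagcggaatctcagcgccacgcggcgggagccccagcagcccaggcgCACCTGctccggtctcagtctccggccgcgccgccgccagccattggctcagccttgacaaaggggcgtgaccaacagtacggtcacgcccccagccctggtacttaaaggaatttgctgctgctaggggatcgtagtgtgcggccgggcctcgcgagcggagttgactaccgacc
*Snai1* held 1 such E-box and the promoters of *Vim*, *Zeb2* and *Twist1* held 0, beside 20.2% of 32851 promoters of the same length that held 1 or more. *Snai1* had 34 CpG dinucleotides, a number reached by 7.73% of promoters. *Twist1* had 27 (reached by 15.5%) and *Vim* had 11 (reached by 41.4%), beside a median of 7. *Zeb2* was matched to several promoters, which had 9, 8, 8 and 19 (reached by 45.8%, 48.6%, 48.6% and 28.1%). The matches are a description of the letters, and no binding or methylation was measured.

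Ordered by mean FPKM, the genes ran *Vim*, *Cdh1*, *Cdh2*, *Cdh3*, *Zeb1*, *Zeb2*, *Snai1*, *Snai2* and *Twist1*. With the gene lengths of the authors' table, the largest step was from *Cdh1* down to *Cdh2*, a ratio of means of 6.79. With the lengths of the longest coding transcripts, the steps from *Vim* to *Cdh1* and from *Zeb2* to *Snai1* were larger than that one. With the authors' gene lengths, the ranges of the 3 libraries overlapped for 3 pairs of neighbours. These were *Cdh2* and *Cdh3*, *Snai1* and *Snai2*, and *Snai2* and *Twist1*, whose levels were thus not apart beyond the spread of the libraries. Within each of the 3 libraries, *Cdh2* was nonetheless above *Cdh3* and *Snai2* above *Twist1*, while *Snai1* was above *Snai2* in 2 of 3. The pooled Poisson intervals of *Snai2* and *Twist1* did not overlap, but they cover counting error only. With the transcript lengths, the range of *Cdh2* (5.66 to 7.09 FPKM) lay above that of *Cdh3* (2.47 to 3.56 FPKM). The range of *Zeb1* (2.44 to 3.76 FPKM) then overlapped that of *Cdh3*. No test of these gaps was run, since an exact sign test over 3 libraries gives a two-sided p of 0.25 at the lowest.

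Among the 5 EMT factors, the Zeb genes held most of the summed FPKM. With the authors' gene lengths, *Zeb1* made up 52.7% ± 5.24 and *Zeb2* 26.8% ± 1.11, against 9.90% ± 1.67 for *Snai1*, 7.90% ± 4.43 for *Snai2* and 2.76% ± 1.69 for *Twist1* (SD, n = 3). The sum of the 5 genes was 2.88, 3.65 and 3.87 FPKM in replicates 1, 2 and 3, below *Cdh1* alone in every library. By the lengths of the longest coding transcripts, *Zeb1* and *Zeb2* were at 3.25 and 2.06 FPKM. *Snai1*, *Snai2* and *Twist1* kept their levels, so the shares and the sum depend on the length used.

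The spread between libraries was set against counting error in a chi-square test of homogeneity on TMM library sizes, adjusted by Benjamini-Hochberg over 16944 genes of at least 10 counts. Of the 9 genes, 8 could be tested and 7 varied, beside 47.2% of all genes tested. *Cdh1*, *Cdh3*, *Zeb1* and *Zeb2* varied and were lowest in replicate 1 (22.1% of all genes did so), and *Vim* varied and was highest there (22.2%). The test gains power with counts, and 72.3% of genes with at least 1000 counts in total varied. These p-values measure how clearly the spread between these libraries exceeds counting error. They do not measure the size of that spread, nor a condition.

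*Vim* had the smallest adjusted p of the 9 genes (8.14e-28, chi-square test of homogeneity), at a log2 ratio of replicate 1 over the mean of the others of 0.25. For *Cdh1* the adjusted p was 3.30e-11 and the log2 ratio -0.28, and for *Cdh3* they were 0.00949 and -0.35 (same test). *Zeb1* had an adjusted p of 1.37e-05 at a log2 ratio of -0.52, and *Zeb2* one of 0.00517 at -0.36 (same test). *Cdh2* varied too (adjusted p = 0.00375, same test), with a log2 ratio of only -0.06, since it was replicate 2 that was highest. *Snai1* gave an adjusted p of 0.985 and *Snai2* one of 0.0454 (same test), and *Twist1* had too few counts.

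The genes differ in length, and the trend of replicate 1 on length moved with these results. Once the trend was removed, 5 of the 8 genes varied, beside 38.6% of all genes, and with the GC trend removed as well it was again 5, beside 37.9%. The 2 long Zeb genes, of 10266 and 20203 bases, no longer did (69.6% of genes of at least 10000 bases varied before), with an adjusted p of 0.352 for *Zeb1* and 0.331 for *Zeb2* (chi-square test of homogeneity, Benjamini-Hochberg). The log2 ratio of replicate 1 over the others went from -0.52 to -0.18 for *Zeb1* and from -0.36 to 0.17 for *Zeb2*. By the authors' gene lengths, *Cdh1*, *Cdh3* and *Vim*, of 4384 to 4743 bases, lie where the trend is near 0. Their log2 ratios became -0.23, -0.35 and 0.29 with adjusted p of 6.58e-08, 0.0111 and 6.45e-39 (same test). The longest coding transcript of *Vim* has 2193 bases, and the length groups of medians of 1866 and 2295.5 bases had trends of 0.28 and 0.22. The result for *Vim* thus depends on the length used. For *Cdh2*, of 8066 bases in the authors' table, the log2 ratio turned from -0.06 to 0.20 (adjusted p = 0.00128, same test). Its longest coding transcript has 4843 bases, and the length group of a median of 4740 bases had a trend of -0.05. That turn thus also depends on the length used, and no trend was fitted on transcript lengths.

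Without replicate 1, *Cdh2* alone of the 9 genes varied (adjusted p = 0.00931, chi-square test of homogeneity), beside 8.11% of all genes. *Cdh1* then gave an adjusted p of 0.217, *Vim* 0.438, *Cdh3* 0.383, *Zeb1* 0.830, *Zeb2* 0.989 and *Snai2* 0.0588 (same test). Leaving out replicate 2 instead lost *Cdh2* (0.378), *Cdh3* (0.137) and *Snai2* (0.403), with 42.9% of all genes varying, and leaving out replicate 3 lost *Snai2* (0.137), with 46.7% varying. The call of *Snai2* also went when genes under 10 counts were kept in the test (adjusted p = 0.0624, 32.5% of genes varying).

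**Figure D4:**
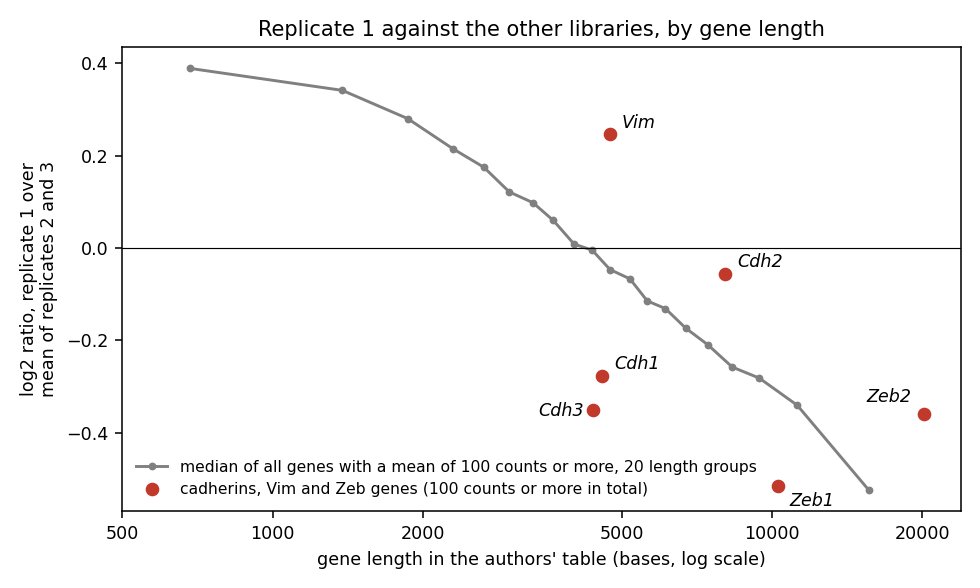
Log2 ratio of scaled counts in replicate 1 over the mean of replicates 2 and 3 (y axis) against gene length in the authors' table (x axis, log scale). The grey line joins the medians of 20 length groups of genes that averaged 100 counts or more, and red points are *Vim*, the cadherins and the Zeb genes. *Vim* stands above the line and *Cdh1* and *Cdh3* below it, whereas *Zeb1*, at -0.52, stands below the line and *Zeb2*, at -0.36, lies beyond the longest group's median.

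The genes that work with the cadherins were taken from lists of related genes, 72 in all besides the 9. Of these, 42 reached 1 FPKM in every library, beside 20.1% of all named genes and 45.7% of protein-coding genes. The median of the mean levels was 13.1 FPKM for catenins and adherens junction genes, 16.1 for epithelial junctions and keratins, 5.48 for mesenchymal genes, 1.2 for further EMT factors and 0.992 for epithelial regulators, beside 3.41 for all genes tested. In the list of catenins and adherens junction genes, 7 of 8 did. *Ctnnb1*, the beta-catenin gene, whose product binds the cadherin tail and also carries WNT signals, was at 149, 188 and 197 FPKM (mean 178 ± 25.4, SD, n = 3), above *Cdh1* in every library. *Ctnna1*, which links this complex to actin, was at 52.6 ± 3.92 FPKM, and *Ctnna2*, the neuronal alpha-catenin, had at most 3 counts in every library. In this list 6 of 7 tested genes varied, 5 with the lowest value in replicate 1, beside 47.2% and 22.1% of all genes tested and 72.3% varying among genes with at least 1000 counts. Without replicate 1, 1 gene of the list varied, beside 8.11% of all genes.

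Of 13 genes of epithelial junctions and keratins, 13 reached 1 FPKM in every library, beside 45.7% of protein-coding genes. *Epcam*, an epithelial adhesion molecule, was at 116 ± 11.1 FPKM and *Krt18*, a keratin of simple epithelia, at 41.0 ± 5.89 FPKM (SD, n = 3), both above the level of *Cdh1*. Of the 13, 8 varied (47.2% of all genes tested did), 3 of them lowest (22.1%) and 5 highest (22.2%) in replicate 1. Of 6 regulators of epithelial identity 2 reached 1 FPKM in every library, beside the same 45.7%. They were *Esrp1*, a splicing factor of epithelia, at 4.27 ± 0.779 FPKM and *Elf3*, an ETS factor, at 3.58 ± 0.196 FPKM (SD, n = 3). In that list 1 of 6 genes varied, beside 47.2% of all genes tested.

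Of 10 mesenchymal genes 6 reached 1 FPKM in every library, beside 45.7% of protein-coding genes. *Sparc*, a matrix glycoprotein, was at 45.5 ± 2.21 FPKM and *Fn1*, the fibronectin gene, at 14.6 ± 5.09 FPKM (SD, n = 3), so that *Vim* was above both. *S100a4*, often used as a marker of fibroblasts, had a count of 0 in every library, which allows up to 3 counts in each. Of 9 tested genes 8 varied, 6 lowest (22.1%) and 2 highest (22.2%) in replicate 1. Of all genes tested 47.2% varied, and of those with at least 1000 counts 72.3%. With the length trend removed 5 varied, beside 38.6% of all genes, and without replicate 1, 4 varied, beside 8.11%. *Vim* and *Fn1* thus ran in opposite directions in replicate 1, with log2 ratios to the other libraries of 0.25 and -0.90. These 2 ratios still hold the length trend. By the authors' gene lengths, it was -0.05 in the length group of a median of 4740 bases, near *Vim* (4743 bases). The longest coding transcript of *Vim* has 2193 bases, and the trend was 0.22 in the group of a median of 2295.5 bases. In the group of a median of 11239 bases, near *Fn1* (11685 bases), the trend was -0.34.

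Of 9 further EMT factors and E proteins, 5 reached 1 FPKM in every library, beside 45.7% of protein-coding genes. *Tcf3*, the gene of the E2A proteins that pair with Twist factors, was at 68.3 ± 4.75 FPKM and *Tcf12*, another E protein gene, at 4.62 ± 0.936 FPKM (SD, n = 3). *Foxc2* and *Prrx1*, factors of mesenchyme, had at most 3 counts in every library. *Snai3*, a further Snail gene named after its values were seen, was at 1.29, 0.984 and 1.46 FPKM in replicates 1, 2 and 3. That was above *Snai1* and *Snai2* in every library. Here 4 of 7 tested genes varied, near the 47.2% of all genes, 3 lowest (22.1%) and 1 highest (22.2%) in replicate 1. The level of *Tcf3* was thus above that of each of the 5 EMT factors followed here. With the authors' gene lengths it was also near that of *Vim*. By the length of its longest coding transcript, *Vim* was at 157 FPKM. No such value is given for *Tcf3*, so this level of *Vim* cannot be set against the 68.3 FPKM of *Tcf3*.

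Of 7 markers of the primitive streak, mesoderm and endoderm, 2 reached 1 FPKM in every library, beside 45.7% of protein-coding genes. They were *Foxa2*, at 1.96 ± 0.588 FPKM, and *Eomes*, at 1.32 ± 0.161 FPKM (SD, n = 3). *Mesp1*, a gene of early mesoderm, had at most 3 counts in every library. The list summed to 4.53 to 5.47 FPKM per library. Of the 6 tested, 1 varied, beside 47.2% of all genes tested. The part of such cells in the levels of *Cdh2*, *Vim* and *Snai1* was not tested.

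**Figure D5:**
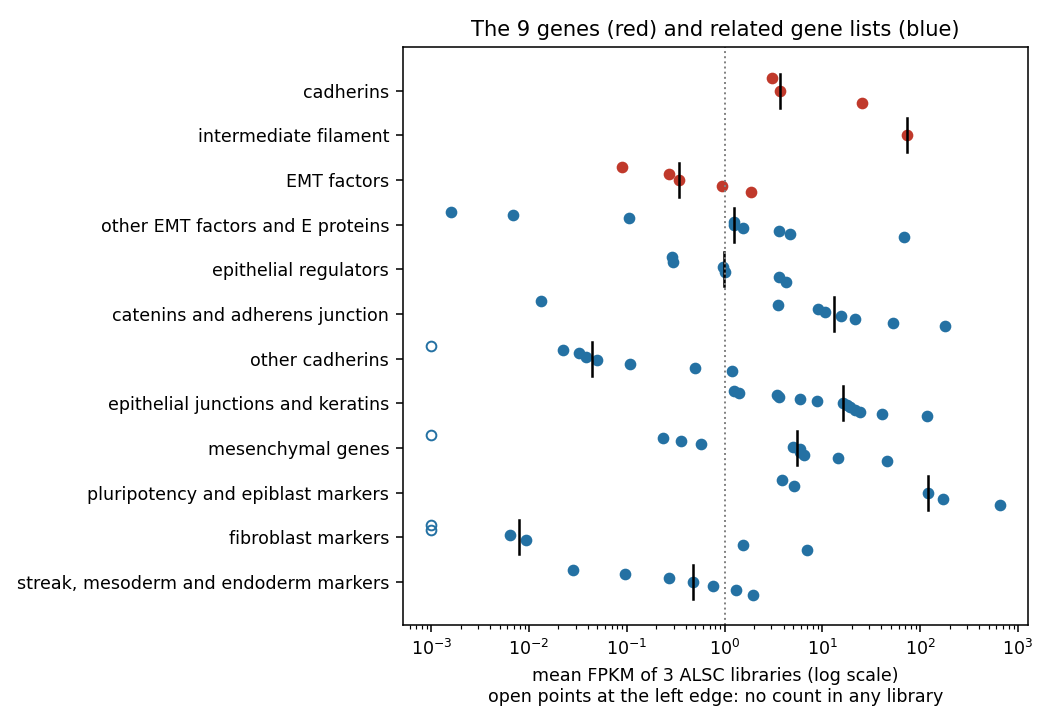
Mean level over the 3 ALSC libraries of each of the 9 genes (red) and of the genes of the related lists (blue), as FPKM on a log axis, 1 line per list. Black bars are list medians, the dotted line is 1 FPKM, and open points at the left edge had no count in any library. The 13 genes of epithelial junctions and keratins all stand above 1 FPKM, whereas the 8 other cadherins reach at most 1.18 FPKM on average.

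The protein-coding genes with levels most like those of *Cdh1*, by Euclidean distance of log2(FPKM + 1) over the 3 libraries, were *Unc119b* (distance 0.052) and *Fbxw8* (0.053). For *Cdh2* they were *Ostm1* (0.038) and *Spock2* (0.084). With 3 libraries such likeness is common, since 74 genes lay within 0.2 of *Cdh1* and 106 within 0.2 of *Cdh2*.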

How the data were processed

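RNA-seq of 3 ALSC libraries was analysed. Per the paper's methods, paired-end reads were mapped to GRCm38, and the submitters' processing notes list HISAT2 2.0.5. The kit does not mark strand, and the counting program is not given in the sources used here. The authors deposited raw counts per gene with gene lengths, without normalization. The 3 columns of counts of another cell type, which match no sample, were not used. Entries without a gene name (317 of 55738, at most 0.182% of a library's counts) were left out. FPKM was computed from the counts, the table's gene length and the total on named genes (18037342 to 18724038). The 9 genes, the gene lists and the tests were chosen with earlier results of these data known. Of each list, the 2 genes with the highest mean and those with at most 3 counts in every library are named, and further genes were chosen after their values were seen. Counts were scaled with edgeR 4.0.16 (TMM, R 4.3.3) and, as an alternative, DESeq2 1.42.0. Variation between libraries came from a chi-square test of homogeneity (SciPy 1.17.1) with Benjamini-Hochberg adjustment over genes of at least 10 counts and a threshold of 0.05. The test was run on simulated counts with Poisson counting error only and 200 genes changed in 1 library. Of these, 82 were recovered at a 1.25-fold change, 115 at a 1.5-fold change and 151 at a 2-fold change. None (0 of 16646 genes) was called in counts without changes. The simulation held no further spread between libraries and no length trend, so it does not give the error rate or power in the real libraries. Length trends were medians of 20 groups of genes that averaged 100 counts or more. Alternatives were other scalings, filters, FPKM thresholds, pseudocounts and lengths, and leaving out each replicate.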

Additional observations from a re-analysis of the deposited data

How the results depend on the processing

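With the length of the longest coding transcript in place of the table's, the log2 ratio of *Cdh1* to *Cdh2* moved from 2.76 to 2.07, of *Cdh1* to *Vim* from -1.53 to -2.60 and of *Zeb1* to *Zeb2* from 0.97 to 0.65, and the levels of *Cdh2*, *Vim*, *Zeb1* and *Zeb2* became 6.19, 157, 3.25 and 2.06 FPKM. A pseudocount of 1 FPKM took the ratios of *Cdh1* to *Cdh2*, *Cdh1* to *Cdh3* and *Zeb1* to *Zeb2* to 2.47, 2.70 and 0.55. Leaving out 1 library at a time, 1 (without replicate 1) to 6 (without replicate 3) of the 9 genes varied, 4 without replicate 2, and 1302 to 7486 of all genes did. Removing the length and GC trends together, chosen after seeing the data, left 5 of the 9 genes and 6425 of all genes. Under the other settings the remaining values moved by less than the spread between libraries, or by less than 1.5 times for counts. No paired analysis was possible because there is 1 condition, with 3 libraries. Counts of 16 or fewer per library limit the precision of *Snai1*, *Snai2* and *Twist1*.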
